A study of Mus musculus with 6 samples.

Results

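The genes described here were 9 myeloid chemokine ligands, *Ccl2*, *Ccl3*, *Ccl4*, *Ccl5*, *Ccl6*, *Ccl9*, *Cxcl2*, *Cxcl10* and *Cxcl16*, all of which leukocytes of the bone marrow can make. They were taken by symbol, without a threshold on their values, from the 39179 mouse genes counted. Bulk bone marrow RNA of 6 littermates was sequenced, to compare marrow with and without ectopic CDX2, an intestinal homeobox factor. The 3 *MxCDX2* mice carried *RsCDX2*, a knockin of human *CDX2* at *Rosa26* behind a removable stop sequence, together with *Mx1Cre*, a Cre transgene driven by the interferon-inducible *Mx1* promoter. The 3 control mice differed in genotype: control 1 carried *RsCDX2* alone, control 2 carried *Mx1Cre* alone and control 3 was wild type. All 6 mice, controls included, received 3 injections of poly(I:C), a double-stranded RNA mimic that triggers an interferon response, at 10 µg per g and, per the methods, at 3 months of age, 6 weeks before the RNA was taken. *Mx1Cre* acts in all cells that respond to interferon, and the marrow was neither sorted nor fractionated.

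Chemokines are small secreted proteins that guide leukocytes through G protein-coupled receptors. CCL6 and CCL9, 2 proteins of rodents, signal through CCR1, to which CCL3 and CCL5 also bind, and CCL4 is a close relative of CCL3 that attracts monocytes and T cells. CCL2 recruits CCR2-positive monocytes from the marrow, CXCL2 mobilizes neutrophils through CXCR2, CXCL10 attracts CXCR3-positive T and NK cells and is induced by interferon, and CXCL16 is a membrane-bound ligand of CXCR6 that proteases can shed. Many chemokine genes lie in tandem clusters that arose by duplication.

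Between 38646101 and 49899650 reads per mouse were counted on genes, and 15980 genes were tested. Reads on mouse *Cdx2*, the gene to which reads of the human transgene can map, numbered 152 to 183 in each *MxCDX2* mouse and at most 4 in each control. The first principal component held 60.1% of the variance and separated the groups, while the wild-type control stood apart on the next component (15.4%). Of the marker lists, all 6 erythroid genes, 7 of 9 neutrophil genes, 4 of 5 B cell genes, 4 of 5 basophil and mast cell genes, 3 of 8 macrophage genes, 3 of 7 stromal and endothelial genes, 2 of 8 T and NK cell genes and 1 of 5 megakaryocyte genes were lower in *MxCDX2* mice, 5 of 8 monocyte genes were higher, and none of the 4 eosinophil genes was called in either direction by edgeR, where 1 of them had an unadjusted p below 0.05 and DESeq2 and limma-voom called 1.

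The promoters of *Ccl6* and *Ccl9* are shown first, since these adjacent genes held most of the ligand RNA and lay on opposite sides of their controls in the *MxCDX2* mice. Promoter sequences (RefSeq, GRCm38.p6; 250 bases before to 50 after the start) were matched for 5 of the 9 genes, *Ccl3*, *Ccl6*, *Ccl9*, *Cxcl2* and *Cxcl10*. Capitals mark the stretch over which the 2 promoters aligned best, with 59 identical bases of 74 aligned positions (79.7%) and 7 gaps, from -59 to 14 in *Ccl6* and from -18 to 48 in *Ccl9*, counted from the start site. Both are on the minus strand, at chr11:83593038-83593337 for *Ccl6* and chr11:83578587-83578886 for *Ccl9*. The other pairs among the 5 promoters aligned over at most 31 positions.
Ccl6: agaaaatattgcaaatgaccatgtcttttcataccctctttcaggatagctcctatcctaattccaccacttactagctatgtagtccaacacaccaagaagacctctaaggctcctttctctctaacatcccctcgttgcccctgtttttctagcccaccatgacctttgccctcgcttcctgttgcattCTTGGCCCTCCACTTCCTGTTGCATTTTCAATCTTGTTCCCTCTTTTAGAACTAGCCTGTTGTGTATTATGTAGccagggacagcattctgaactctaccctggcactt
Ccl9: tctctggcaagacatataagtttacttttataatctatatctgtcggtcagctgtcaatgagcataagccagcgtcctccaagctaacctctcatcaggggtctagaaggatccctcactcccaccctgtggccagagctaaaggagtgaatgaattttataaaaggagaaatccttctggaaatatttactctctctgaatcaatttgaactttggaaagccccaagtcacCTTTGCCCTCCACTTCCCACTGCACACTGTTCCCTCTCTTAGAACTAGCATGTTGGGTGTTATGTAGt

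The promoters of *Ccl3* (chr11:83649329-83649628) and *Cxcl10* (chr5:92348840-92349139), both on the minus strand, are shown because these were the other ligands that rose. Capitals mark matches to motifs searched on both strands: the CDX-type letters TTTATG and TTTATT, a kappa B motif, the interferon response core GAAANNGAA, the C/EBP letters TTGCNNAA, the AP-1 letters TGANTCA and the PU.1 letters GAGGAA.
Ccl3: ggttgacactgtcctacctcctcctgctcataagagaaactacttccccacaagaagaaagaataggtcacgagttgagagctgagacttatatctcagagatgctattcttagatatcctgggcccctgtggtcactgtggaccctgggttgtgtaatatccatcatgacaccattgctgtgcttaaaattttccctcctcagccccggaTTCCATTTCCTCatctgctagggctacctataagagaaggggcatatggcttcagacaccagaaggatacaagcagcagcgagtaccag
Cxcl10: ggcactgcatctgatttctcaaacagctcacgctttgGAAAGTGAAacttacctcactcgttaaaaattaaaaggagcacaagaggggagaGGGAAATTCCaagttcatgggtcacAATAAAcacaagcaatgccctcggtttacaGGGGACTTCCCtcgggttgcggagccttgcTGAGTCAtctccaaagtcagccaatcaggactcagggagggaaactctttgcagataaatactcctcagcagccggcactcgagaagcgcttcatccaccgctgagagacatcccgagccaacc
In *Cxcl10*, the capitals hold, from left to right, the interferon core from -213, a kappa B match from -159, TTTATT read on the opposite strand, overlapping kappa B matches from -104 and -103, and an AP-1 match from -74. In *Ccl3*, an interferon core match from -39 overlapped a PU.1 match from -33. *Ccl9* held an AP-1 match from -53 and a kappa B match from -35, *Cxcl2* held TTTATG, kappa B and PU.1 matches, and *Ccl6* held none of the 7 motifs. Of 32851 mouse promoters of this length, 11.9% held TTTATG, 19.6% TTTATT, 8.46% kappa B, 8.56% the interferon core, 10.8% C/EBP, 7.81% AP-1 and 28.3% PU.1. These matches are descriptions of the letters, and binding was not measured.

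*Ccl9*, *Cxcl10* and *Ccl3* rose in *MxCDX2* marrow and no ligand of the 9 passed both thresholds downwards, which were a log2 fold change beyond 1 in either direction and an adjusted p below 0.05 (quasi-likelihood test of edgeR, adjusted by Benjamini-Hochberg over all genes tested). Over all genes tested, 13.6% were called, 4.59% upwards and 9.03% downwards, against 3 of the 9 ligands upwards. Downwards, 2 of the 9 had an unadjusted p below 0.05, *Ccl6* and *Cxcl2*, while limma-voom called 0 and DESeq2 called 1, *Cxcl2*, beside 15.5% of all genes called by DESeq2. At any fold, 4 ligands had an adjusted p below 0.05, *Ccl9*, *Ccl3*, *Cxcl10* and *Ccl6*, against 21.7% of all genes. Every *MxCDX2* mouse lay above every control mouse in 3 ligands and in 21.4% of all genes, and the groups did not overlap in either direction in 4 of the 9 and in 42.1% of all genes. The share of ligands without overlap was thus near that of all genes. The median log2 fold change was 0.179 over the 9 ligands and 0.002 over all genes tested. In bulk RNA, fewer cells of a type and less RNA per cell cannot be told apart.

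**Figure D1:**
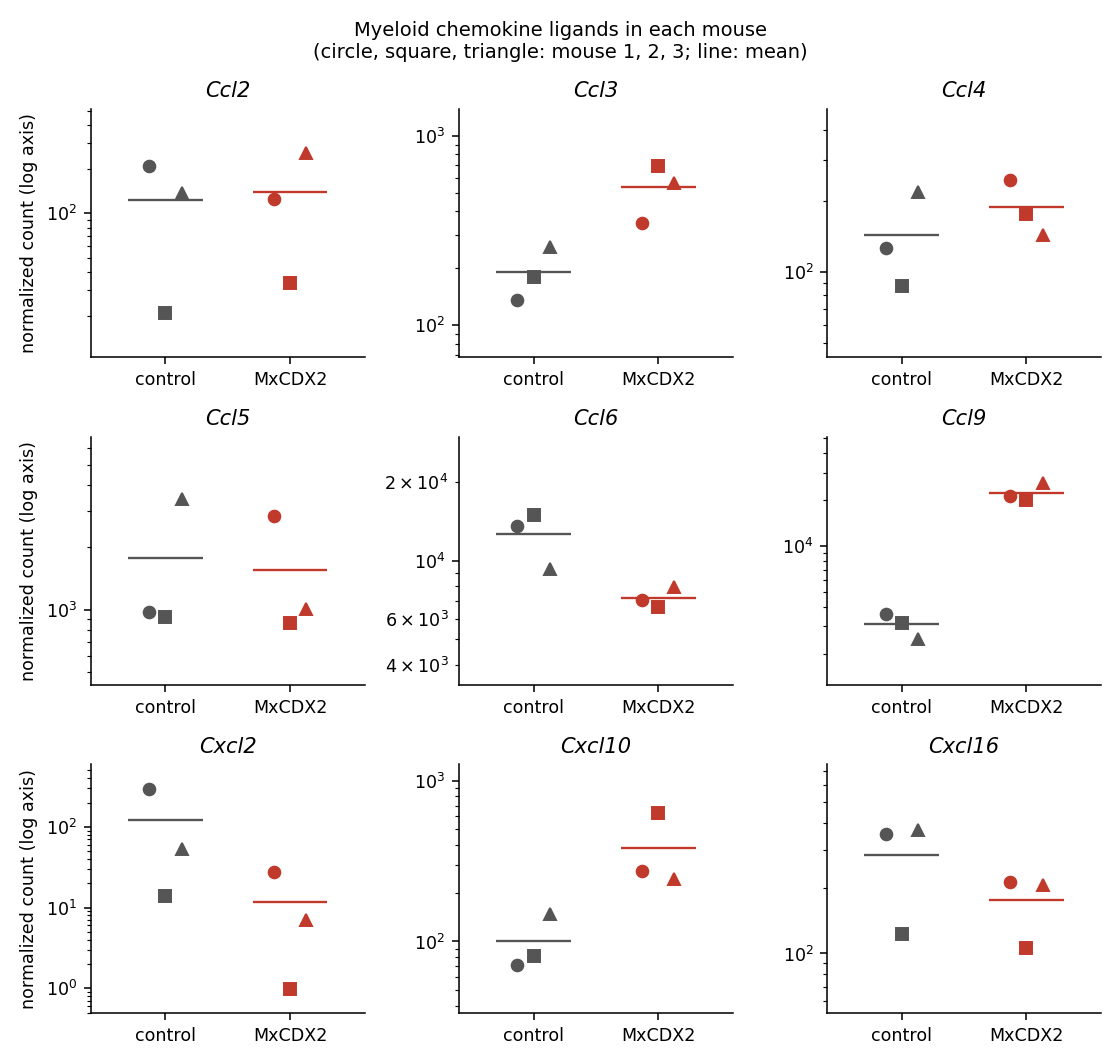
Normalized counts of the 9 chemokine ligands in each mouse, on log axes, with mouse 1, 2 and 3 of each group as circle, square and triangle and the group mean as a line. The groups are apart in *Ccl3*, *Ccl6*, *Ccl9* and *Cxcl10*, with *Ccl6* the only 1 of these 4 in which the *MxCDX2* mice are lower, and they overlap in the other 5.

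*Ccl9* (ENSMUSG00000019122, chromosome 11, 83572919 to 83578636, GRCm38, minus strand), a CCR1 ligand of macrophages and myeloid precursors, showed the largest rise of the 9. Its normalized counts, scaled to the mean library size, were 3627, 3169.6 and 2489 in controls 1 to 3, in that order, against 20969, 19919.6 and 25693 in *MxCDX2* mice 1 to 3. The groups lay far apart, and the 3 controls of different genotype were close to each other. The means were 3095 ± 572.5 and 22194 ± 3075 (SD, n = 3), a 7.17-fold difference with a log2 fold change of 2.84 (SE 0.19, adjusted p = 0.00101). The exact permutation test over mice gave a two-sided p of 0.1, the smallest that 3 mice against 3 allow. Among the 734 genes called upwards, *Ccl9* stood 24th by p-value and 142nd by fold change. Ranked by level per length among 37693 genes, it moved from between 2216th and 3019th in the control mice to between 194th and 285th in the *MxCDX2* mice. The call held without each mouse in turn and in all 8 other fits of the 6 mice, with log2 fold changes between 2.73 and 2.98.

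*Ccl6* (ENSMUSG00000018927, chromosome 11, 83587882 to 83593087, minus strand), a CCR1 ligand made constitutively by myeloid cells, went the other way. The control mice had normalized counts of 13671, 14992 and 9349, and the *MxCDX2* mice of 7069, 6671.5 and 7927. All 3 *MxCDX2* mice lay below all 3 controls, and the wild-type control was the lowest of the controls. The means of 12671 ± 2951 and 7222 ± 642 (SD, n = 3) gave a log2 fold change of -0.81 (SE 0.19, adjusted p = 0.0261), a 1.75-fold lower level that did not reach the fold threshold, with an exact permutation p of 0.1. The adjusted p was 0.0555 with mouse number as a replicate block. It was 0.0765 without control 1, 0.0676 without control 2, 0.0036 without control 3, and 0.0789, 0.093 and 0.0749 without *MxCDX2* mice 1, 2 and 3.

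The ratio of *Ccl9* to *Ccl6* within a mouse needs no scaling between libraries. Per length of annotated exon, it was 0.156, 0.125 and 0.157 in the control mice and 1.75, 1.76 and 1.91 in the *MxCDX2* mice. *Ccl6* was thus the more abundant transcript in every control mouse and *Ccl9* in every *MxCDX2* mouse. The log2 ratio was -2.78 ± 0.19 in control and 0.85 ± 0.07 in *MxCDX2* mice (SD, n = 3), a 12.4-fold difference with an exact two-sided permutation p of 0.1. That p was fixed beforehand, because *Ccl9* lay above and *Ccl6* below all controls in every *MxCDX2* mouse, and it adds nothing to the tests of the single genes. Beside this, the summed normalized counts of 8 monocyte markers ranged from 66952 to 94792 in control and from 302363 to 358725 in *MxCDX2* mice, with *F13a1*, *Ly6c2*, *Ccr2*, *Csf1r* and *Irf8* higher, *Cd14*, *Fcgr3* and *Cx3cr1* not called, and none at 0. The call of *Irf8* was lost without control 1, control 2, *MxCDX2* mouse 2 or *MxCDX2* mouse 3 (adjusted p up to 0.102). The sums of 9 neutrophil markers ranged from 1917335 to 3034299.8 in control and from 793676 to 1088421 in *MxCDX2* mice, and the sums of 8 macrophage markers from 23715 to 62232 and from 17869.8 to 21675. The macrophage markers did not move as 1: 3 were called lower and 5 were not called. Among those not called, *Adgre1* was higher in every *MxCDX2* mouse than in every control (log2 fold change 0.75, adjusted p = 0.085). At an unadjusted p below 0.05, 1 of the 8 was upwards and 4 were downwards. The part of these cell types in the 2 ligands was not tested.

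**Figure D2:**
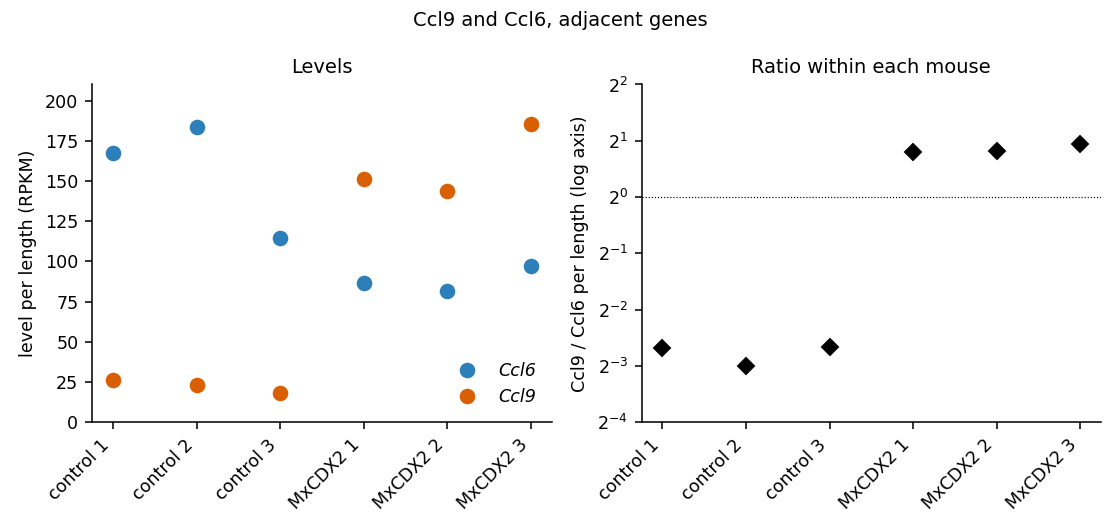
Levels of *Ccl9* and *Ccl6* per length (RPKM, reads per kilobase of exon, scaled to library size) in each mouse, and their ratio within each mouse on a log2 axis, where the dotted line marks equal levels. The ratio lies between 0.125 and 0.157 in the 3 control mice and between 1.75 and 1.91 in the 3 *MxCDX2* mice.

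Among the macrophage inflammatory proteins, *Ccl3* (ENSMUSG00000000982, chromosome 11, 83647844 to 83649355, minus strand), also known as MIP-1 alpha, rose. Its normalized counts were 135.5, 179.7 and 259.8 in the control mice and 347.5, 697.5 and 566.7 in the *MxCDX2* mice. The groups did not overlap, but the lowest *MxCDX2* mouse was near the highest control, the wild-type mouse. From 191.7 ± 63.0 to 537.2 ± 176.9 (SD, n = 3), *Ccl3* was 2.80-fold higher (log2 fold change 1.48, SE 0.35, adjusted p = 0.0281), with an exact permutation p of 0.1. The call held in all 8 other fits of the 6 mice, but *Ccl3* did not meet the stricter limit of an adjusted p below 0.01. The call was lost without control 1 (adjusted p = 0.0756), control 2 (0.0781), *MxCDX2* mouse 2 (0.0859) or *MxCDX2* mouse 3 (0.0915), at log2 fold changes between 1.26 and 1.45.

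*Ccl4* (ENSMUSG00000018930, chromosome 11, 83662584 to 83664683, plus strand), MIP-1 beta, lies 13.2 kb from *Ccl3* and is often induced together with it. Control mice 1, 2 and 3 had 126.5, 87.4 and 219.7 normalized counts of it, and *MxCDX2* mice 1, 2 and 3 had 246.8, 176.3 and 143.6. The groups overlapped, since the wild-type control exceeded 2 of the *MxCDX2* mice. The log2 fold change was 0.38 (SE 0.40, adjusted p = 0.544, exact permutation p = 0.4). The ratio of *Ccl3* to *Ccl4* per length was 0.923, 1.77 and 1.02 in the controls and 1.21, 3.41 and 3.40 in the *MxCDX2* animals, and the difference of 1.03 on the log2 scale gave an exact permutation p of 0.2. With 3 mice against 3 this test cannot go below 0.1, so it cannot decide whether these neighbours responded differently.

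*Ccl5* (ENSMUSG00000035042, chromosome 11, 83525778 to 83530518, minus strand), or RANTES, is made by T cells, NK cells, platelets and activated myeloid cells. Counts of *Ccl5* after normalization were 974, 925 and 3411 in the control mice and 2814, 866 and 1005 in the *MxCDX2* mice. The wild-type control and *MxCDX2* mouse 1 stood well above the other 4 mice, so the spread lay within the groups. The log2 fold change was -0.18 (SE 0.66, adjusted p = 0.873, exact permutation p = 0.7), and it was 0.73 without the wild-type control, 0.11 without *MxCDX2* mouse 2 and 0.06 without *MxCDX2* mouse 3. The same mice, control 3 and *MxCDX2* mouse 1, had the highest counts of *Cxcl9*, an interferon-gamma-induced ligand of CXCR3, at 996 and 1619.7 against 122.1 to 356.9 in the other 4. The summed counts of 8 T and NK cell markers were 7539, 5868 and 12104 in the controls and 5375, 2578.5 and 2729 in the *MxCDX2* animals. In each group they too were highest in these mice. Those of 5 megakaryocyte markers were 30348, 21053 and 255041 and then 13118, 9711 and 13441. Their part in the *Ccl5* values was not tested.

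The 4 chemokine genes of this cluster that lie on the minus strand, in the order *Ccl5*, *Ccl9*, *Ccl6* and *Ccl3*, are separated by 42.4, 9.2 and 54.8 kb. Over the 139 kb from *Ccl5* to *Ccl4*, *Ccl9* and *Ccl3* rose, *Ccl6* was lower below the fold threshold, and *Ccl4* and *Ccl5* were not called. The noncoding gene *E230016K23Rik*, on the plus strand and overlapping *Ccl6*, had 916 reads over all mice against 58640.0 for *Ccl6*, and a log2 fold change of 0.59 (adjusted p = 0.299).

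**Figure D3:**
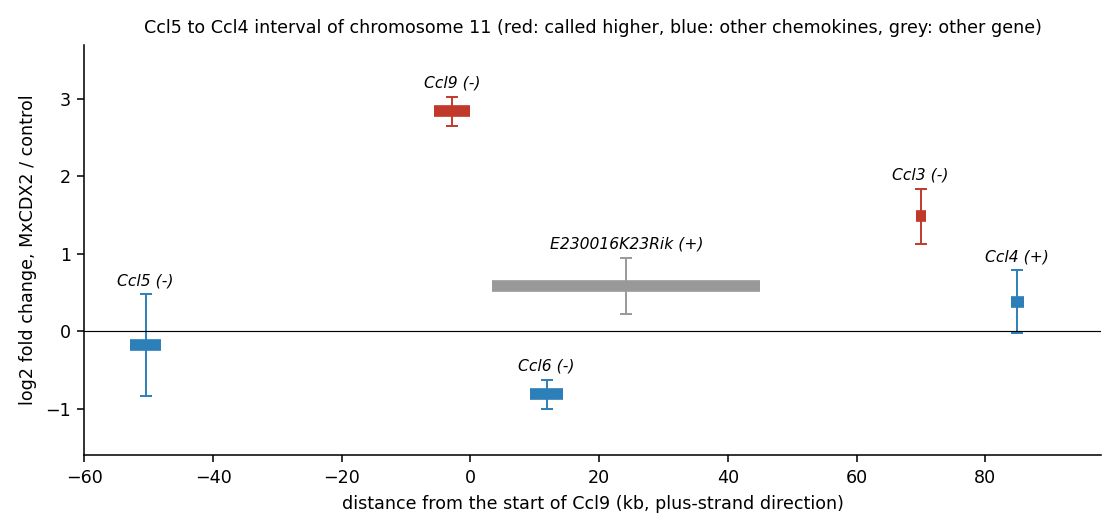
Log2 fold change (*MxCDX2* over control, bars are standard errors) of the tested genes from *Ccl5* to *Ccl4* against their distance in kb from the start of *Ccl9*, with the length of each bar to scale and the strand in brackets. *Ccl9* at 2.84 and *Ccl3* at 1.48 were called, and *Ccl6* at -0.81 lies between them.

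*Ccl2* (ENSMUSG00000035385, chromosome 11, 82035571 to 82037453, plus strand), or MCP-1, is the main ligand of CCR2. Its normalized counts were 210.8, 20.9 and 138.6 in the control mice and 125.0, 33.3 and 259.4 in the *MxCDX2* mice. Both groups spanned nearly the same range, with mouse 2 of each the lowest. The log2 fold change was 0.18 (SE 0.93, adjusted p = 0.913, exact permutation p = 0.8), and it turned to -0.32 without control 2 and -0.63 without *MxCDX2* mouse 3. Its cluster neighbours *Ccl7*, *Ccl12* and *Ccl8* were not called either (adjusted p = 0.668, 0.576 and 0.799).

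*Cxcl10* (ENSMUSG00000034855, chromosome 5, 92346638 to 92348889, minus strand), or IP-10, rose. Its normalized counts were 71.6, 81.4 and 147.7 in the control mice and 275.4, 629.9 and 245.5 in the *MxCDX2* mice. All 3 *MxCDX2* mice were above the controls, with *MxCDX2* mouse 2 far above the others. From 100.2 ± 41.4 to 383.6 ± 213.8 (SD, n = 3), it was 3.82-fold higher (log2 fold change 1.93, SE 0.48, adjusted p = 0.032, exact permutation p = 0.1). The call was lost with mouse number as a replicate block (log2 fold change 1.87, adjusted p = 0.0541) and without control 1 (adjusted p = 0.0932), control 2 (0.0905), *MxCDX2* mouse 2 (0.0752) or *MxCDX2* mouse 3 (0.0532). *Cxcl9*, another CXCR3 ligand, and *Cxcl11*, which the annotation lists as a polymorphic pseudogene, flank *Cxcl10* at 18.6 and 10.7 kb. *Cxcl9* was at 141.8, 122.1 and 996 in the control mice and 1619.7, 327.2 and 356.9 in the *MxCDX2* mice (log2 fold change 0.87, SE 0.99, adjusted p = 0.581), and its groups overlapped. *Cxcl11* was sparse, at 1.28, 2.98 and 24.6 and then 12.7, 36.3 and 6.09 normalized counts (log2 fold change 0.86, adjusted p = 0.606). In *Cxcl10*, the highest mouse was *MxCDX2* mouse 2, and in *Cxcl9* it was *MxCDX2* mouse 1. The log2 ratio of *Cxcl10* to *Cxcl9* per length differed by 0.72 between the groups (exact permutation p = 0.5).

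*Cxcl2* (ENSMUSG00000058427, chromosome 5, 90903871 to 90905938, plus strand), or MIP-2, is a fast-induced ligand of CXCR2. Normalized counts of *Cxcl2* were 296.5, 13.9 and 52.9 in the control mice and 27.5, 0.98 and 6.96 in the *MxCDX2* mice, from 232, 14 and 58 and from 26, 1 and 8 reads. Control 1 was far above all others and *MxCDX2* mouse 1 exceeded control 2, so the groups overlapped. The log2 fold change was -3.35 (SE 1.36, adjusted p = 0.127, exact permutation p = 0.2), which did not pass the test, and it was -1.50 without control 1 (adjusted p = 0.421). DESeq2 (-3.35, adjusted p = 0.0171) and the fit with mouse number as a replicate block (-3.26, adjusted p = 0.0087) did call it.

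*Cxcl16* (ENSMUSG00000018920, chromosome 11, 70453983 to 70459984, minus strand) had normalized counts of 357.8, 123.1 and 373.8 in the control mice and 215.0, 105.8 and 207.2 in the *MxCDX2* mice. Control 2 lay within the range of the *MxCDX2* mice. The log2 fold change was -0.69 (SE 0.49, adjusted p = 0.356, exact permutation p = 0.4). Of its sheddases, *Adam10* had a log2 fold change of -0.60 (adjusted p = 0.00807) and *Adam17* of 0.44 (adjusted p = 0.0193), both under the fold threshold. They were named after their values were seen.

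Levels can be compared between genes only per length, here as RPKM, the reads per kilobase of annotated exon scaled to library size. In the control mice the order of the mean levels was *Ccl6* (155.2 ± 36.2), *Ccl5* (40.6 ± 32.6), *Ccl9* (22.4 ± 4.1), *Ccl3* (5.50 ± 1.81), *Ccl4* (4.82 ± 2.27), *Ccl2* (2.39 ± 1.85), *Cxcl16* (2.07 ± 1.02), *Cxcl2* (1.29 ± 1.63) and *Cxcl10* (0.98 ± 0.40), each as mean ± SD of 3 mice. Among neighbours in this order, the values of the mice did not overlap only between *Ccl6* and *Ccl5* and between *Ccl9* and *Ccl3*. In the *MxCDX2* mice the order was *Ccl9* (160.3 ± 22.2), *Ccl6* (88.5 ± 7.9), *Ccl5* (35.8 ± 24.9), *Ccl3* (15.4 ± 5.1), *Ccl4* (6.30 ± 1.76), *Cxcl10* (3.75 ± 2.09), *Ccl2* (2.69 ± 2.20), *Cxcl16* (1.28 ± 0.44) and *Cxcl2* (0.13 ± 0.15). There, *Ccl9* and *Ccl6*, *Ccl6* and *Ccl5*, *Ccl3* and *Ccl4*, and *Cxcl16* and *Cxcl2* did not overlap, while the other neighbours did.

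Summed over the 9 ligands, the level was 234.6, 238.1 and 232.8 RPKM in the control mice and 327.6, 279.0 and 335.8 in the *MxCDX2* mice. The controls thus had nearly equal sums although their *Ccl5* and *Ccl6* differed. *Ccl6* made up 71.4, 77.15 and 49.2% of the sum in the control mice and 26.4, 29.3 and 28.9% in the *MxCDX2* mice. *Ccl9* made up 11.2, 9.61 and 7.72% and then 46.2, 51.6 and 55.3%. Together these genes held 82.55, 86.8 and 56.9% of the ligand RNA in the controls and 72.6, 80.9 and 84.2% in the *MxCDX2* animals, so the groups overlapped in their joint share, with the wild-type control the lowest.

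**Figure D4:**
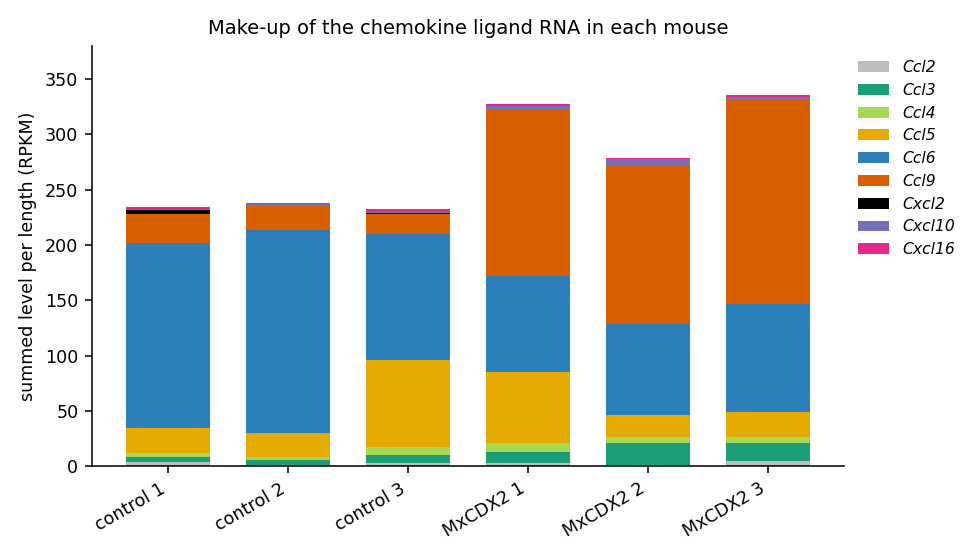
Summed level per length (RPKM) of the 9 ligands in each mouse, as bars stacked by ligand. *Ccl6* is the largest part of the bar in the 3 control mice and *Ccl9* in the 3 *MxCDX2* mice. The part of *Ccl5* is largest in control 3, at 78.1 RPKM or 33.6% of that mouse's sum.

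Of the 9 receptors of these ligands, *Ccr2* rose and *Cxcr2* and *Ackr1* fell. At an unadjusted p below 0.05, 1 was upwards and 3 downwards, and DESeq2 and limma-voom each called 1 upwards and 3 downwards. *Ccr3* was at 756.5, 810.3 and 1339 normalized counts in the control mice and 446.0, 56.8 and 117.5 in the *MxCDX2* mice. It was not called by edgeR (log2 fold change -2.23, SE 0.73, adjusted p = 0.0744). *Ccr2*, the CCL2 receptor of inflammatory monocytes, went from 8383, 7245 and 6125 normalized counts in the control mice to 30522, 70375.5 and 45378 in the *MxCDX2* mice (log2 fold change 2.75, SE 0.33, adjusted p = 0.00312), whereas its ligand *Ccl2* showed no call. *Cxcr2*, the neutrophil receptor for CXCL2, went from 26456, 26708 and 15542 to 7573, 8413 and 6867 (log2 fold change -1.59, SE 0.23, adjusted p = 0.0054). *Ackr1*, a scavenging receptor of erythroid and endothelial cells that binds many of these ligands, went from 1128, 1045 and 1169 to 251.1, 52.9 and 87.1 (log2 fold change -3.10, SE 0.57, adjusted p = 0.0119), and its call was lost without *MxCDX2* mouse 3 (adjusted p = 0.0543). *Ccr1*, the receptor shared by CCL3, CCL5, CCL6 and CCL9, was at 11636, 7132.5 and 5325 in the controls and at 10648, 5122 and 5213 in the *MxCDX2* mice, with a log2 fold change of -0.20 (SE 0.39, adjusted p = 0.753). *Cxcr3* and *Cxcr6*, the receptors of CXCL10 and CXCL16, had log2 fold changes of -0.67 and 0.15 (adjusted p = 0.283 and 0.832). The sums of 6 erythroid markers, from 1325911 to 1679319.8 in control and from 40062 to 142539 in *MxCDX2* mice, stood beside *Ackr1*, and their part was not tested. Of 13 other chemokine receptors tested, 1 was called upwards and 4 downwards, and without *MxCDX2* mouse 3 the count of 5 was 2, since *Ccr7*, *Cxcr5* and *Ccrl2* lost their calls.

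Of 29 other chemokine ligands, 18 were tested, 1 rose and 1 fell, and 3 had 0 reads in all mice. *Ccl24*, eotaxin-2, was low in the control mice at 8.95, 7.94 and 8.21 normalized counts and reached 35.0, 41.2 and 42.7 in the *MxCDX2* mice (log2 fold change 2.23, SE 0.31, adjusted p = 0.00489). *Cxcl12*, the stromal ligand that retains stem cells and neutrophils in the marrow, went from 24582, 11447 and 43917 to 8499, 4536 and 9723 (log2 fold change -1.81, SE 0.51, adjusted p = 0.0481). Its call was lost under limma-voom and total counts only, and without each of 5 of the 6 mice, all but control 2, with an adjusted p of up to 0.133. DESeq2 called 5 of these ligands in place of 2, 1 upwards and 4 downwards, and limma-voom called 1 upwards and 0 downwards. At an unadjusted p below 0.05, 1 was upwards and 4 downwards. The abundant megakaryocyte ligands *Ppbp* (log2 fold change -3.62, SE 1.05, adjusted p = 0.0519) and *Pf4* (-2.70, SE 0.98, adjusted p = 0.0975) were not called by edgeR. In both, the wild-type control was far above all other mice. The median log2 fold change of the 18 was -0.388, against 0.179 over the 9 myeloid ligands.

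**Figure D5:**
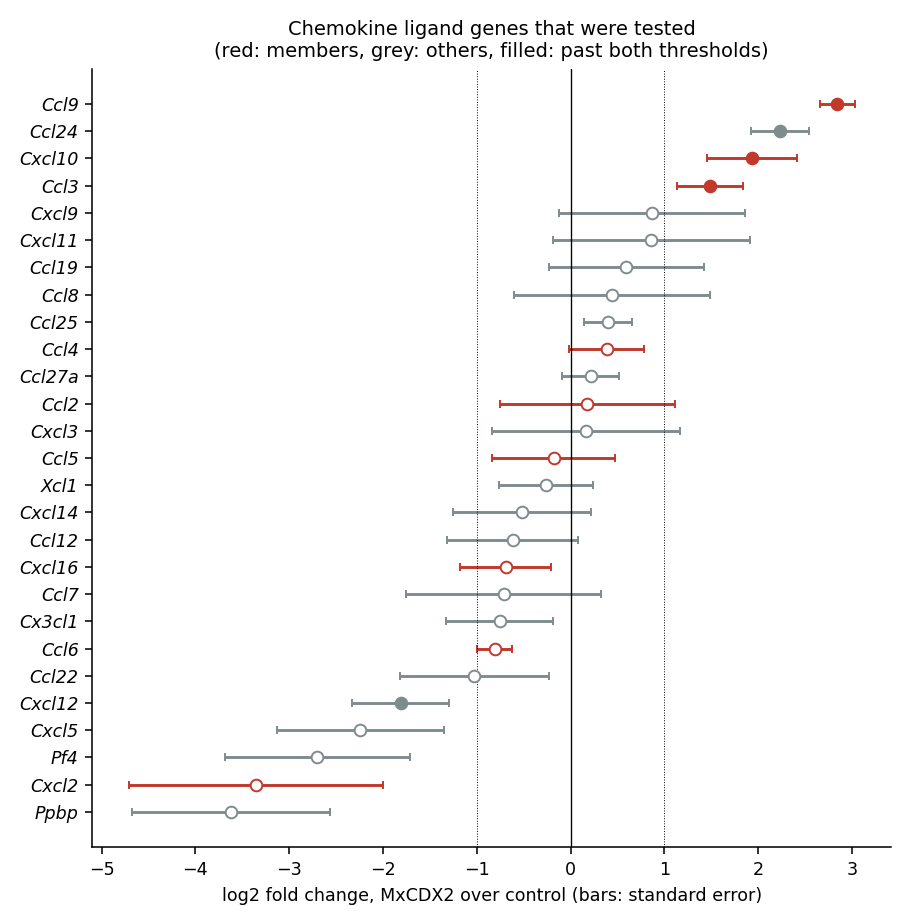
Log2 fold change (*MxCDX2* over control, bars are standard errors) of every chemokine ligand gene tested, with the 9 myeloid ligands in red and the other 18 in grey. Filled points passed both thresholds, and dotted lines mark a log2 fold change of 1 in either direction.

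Lists of pathways that can induce these ligands were counted in the same fit. Of 16 NF-kappa B and early inflammatory genes, edgeR and limma-voom called 0, while 1 upwards and 3 downwards had an unadjusted p below 0.05 and DESeq2 called 1 downwards. *Nfkb1* (log2 fold change 0.33, adjusted p = 0.122), *Nfkbia* (0.01, adjusted p = 0.986), *Rela* (0.02, adjusted p = 0.924) and *Birc3* (0.11, adjusted p = 0.66), the 4 with the most normalized counts over the 6 mice, were not called, and the list's median was -0.093. *Il1b*, named after its values were seen, was not called either (-1.28, adjusted p = 0.0729). Of 20 interferon-stimulated genes, 2 were called upwards, *Mx1* (2.69, adjusted p = 0.0119) and *Mx2* (1.95, adjusted p = 0.0336), and 2 downwards, *Rsad2* (-2.93, adjusted p = 0.0024) and *Isg15* (-1.71, adjusted p = 0.00356). At an unadjusted p below 0.05, 6 were upwards and 2 downwards, DESeq2 called 3 upwards and 2 downwards, and the list's median was 0.325. *Mx1*, *Mx2* and *Isg15* were named after their values were seen, and *Mx2* lost its call without control 1, control 2, *MxCDX2* mouse 2 or *MxCDX2* mouse 3 (adjusted p up to 0.0922). Of 8 proteases that process chemokines, *Ctsg*, which encodes cathepsin G, rose (log2 fold change 2.32, adjusted p = 0.0237), and the neutrophil collagenase *Mmp8* (-2.12, adjusted p = 0.00283) and *Mmp9* (-1.51, adjusted p = 0.0172) fell. *Ctsg* lost its call without control 2 or any 1 of the *MxCDX2* mice (adjusted p up to 0.0768), and *Mmp9* without *MxCDX2* mouse 3 (adjusted p = 0.0815).

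The mice also allowed a description of which genes had the profile most like each ligand, by Pearson correlation of log2 normalized counts over the 6 mice among the 11982 genes whose mean reached 100. The points are whole libraries in 2 groups, so a profile that differs between groups finds many like it. The nearest were *Rhot1*, *Nrros* and *Pdcd6ip* for *Ccl9* (0.9992 to 0.9996), *Eftud2*, *Rpa3* and *Bcorl1* for *Ccl6* (0.987 to 0.9902), *Xylt2*, *Myl6b* and *Tnfrsf13b* for *Ccl3* (0.9971 to 0.9977), *Ggct*, *Slc12a7* and *H2-Q6* for *Ccl5* (0.9828 to 0.9962), and *Mapkbp1*, *Smim20* and *Atp8b5* for *Cxcl10* (0.9917 to 0.9966). The measure ignores the size of the change: *Rhot1* had a log2 fold change of 0.26 against 2.84 for *Ccl9*.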

How the data were processed

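Bone marrow RNA of 3 *MxCDX2* and 3 control mice was sequenced as stranded mRNA libraries. Per the submitters' processing notes and the methods, bcl2fastq 2.17.1.14, STAR 2.5 (GRCm38, Ensembl release 90) and HTSeq 0.6.1 were used, and the authors deposited raw read counts per gene, without normalization. The strand setting of the counting is not given in the sources used here, so reads of *Ccl2*, *Ccl6*, *Cxcl10* and *Cxcl16* and of the genes overlapping them on the opposite strand, which had 0, 916, 125 and 205 counts, might not be separated. The 5 HTSeq summary rows of each file were left out. Reads on no feature or on several features, 2 of these rows, were 12.2 to 17.1% of those and the reads on genes together.

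Symbols came from GENCODE M21, where 37693 of the 39179 identifiers of the files were found. *Ccl19* and *Ccl21a* each matched 2, and the one with more counts was used. The tests ran in edgeR 4.0.16 under R 4.3.3 (TMM, filterByExpr, glmQLFit, glmQLFTest, Benjamini-Hochberg adjustment), with the thresholds of the methods. Standard errors were derived from the F statistic. Exact permutation tests used log2 normalized counts with a pseudocount of 0.5. Alternatives were DESeq2 1.42.0, limma-voom (limma 3.58.1), DESeq2's size factors, total counts only, TMM without the 10 most abundant genes, a filter of 1 count in any mouse or of 10 in every mouse, an adjusted p below 0.01, a replicate block and each mouse left out. Python 3.11.15 with scipy 1.17.1, numpy 2.4.6, pandas 2.3.3 and, for figures, matplotlib 3.10.9 did the rest. The fits were tested on simulated data.

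The ligands, lists and motifs were chosen with earlier results of these data known. Named were all 9 ligands, each called gene among the other ligands and the receptors of the 9, at most the 4 genes with the most normalized counts of every other list, and the 3 genes most like each of 5 ligands. Named outside this rule, after their values were seen, were *Irf8*, *Cd14*, *Fcgr3*, *Cx3cr1*, *Adam10*, *Adam17*, *Il1b*, *Mx1*, *Mx2*, *Isg15*, *Ccr7*, *Cxcr5* and some neighbours and receptors of the ligands. Some listed genes are not reported here one by one. The numbers of the mice carry no stated pairing. Departures of the mice from their group mean correlated at 0.158, 0.287 and 0.176 between a control and an *MxCDX2* mouse sharing a number. Between mice with different numbers the correlations ran from -0.336 to 0.122. Departures within a group are not independent, so these correlations constrain each other and cannot decide whether the numbers pair the mice. The blocked fit is thus only an alternative, and its values are given where they change a call. With 38646101 to 49899650 reads per mouse, the spread between mice limits the precision. The mice are littermates, 3 to a group, and p-values set the group difference against the spread between these mice. The 3 controls differed in genotype, so genotype and mouse cannot be told apart in their spread.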

Additional observations from a re-analysis of the deposited data

How the results depend on the processing

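Leaving out 1 mouse gave between 1205 and 2406 differentially expressed genes in place of 2177, with the lowest count without *MxCDX2* mouse 3, and an adjusted p below 0.01 gave 1043. Of the called ligands, *Ccl9* met that stricter limit, while *Ccl3* (adjusted p = 0.0281) and *Cxcl10* (0.032) did not. Of the 3 called ligands, between 1 and 3 were called when a mouse was left out, and 1, *Ccl9*, without control 1, control 2, *MxCDX2* mouse 2 or *MxCDX2* mouse 3, since *Ccl3* and *Cxcl10* lost their calls there. The cause was not tested. The direction turned in *Ccl2*, at -0.32 without control 2 and -0.63 without *MxCDX2* mouse 3 within a range of -0.63 to 0.81, and in *Ccl5*, at 0.73 without control 3, 0.11 without *MxCDX2* mouse 2 and 0.06 without *MxCDX2* mouse 3 within a range of -0.92 to 0.73. The other 7 ligands kept their direction in all fits made. With the replicate block, 2205 genes and 3 ligands were called. It added *Cxcl2* and removed *Cxcl10*, and it changed no other ligand's call. *Cxcl2* had no value with at least 10 counts in every mouse. Total counts only moved the median of all genes to 0.118, and 3 ligands were called. *Cxcl2* rested on 1 to 232 reads per mouse.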
